A study of Homo sapiens with 6 samples.

Results

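The genes of the proteasome were followed after silencing of the long noncoding RNA FAM83H-AS1. They were the rows of type mRNA whose symbol begins with PSMA to PSMG and a digit, which gave 49 of the 40173 rows of the count table, or of its 19756 rows of type mRNA. Of these, 47 had enough counts to be tested among 15250 genes in all. PSMA8, the alpha subunit of the testis, and PSMB11, the beta subunit of the thymus, had 0 counts in each of the 6 libraries. PSMC3IP shares only the letters of the name, since it encodes a partner of the meiotic recombinases. It is counted apart from the roles below but stays in the totals.

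The study asked what changes in lung adenocarcinoma cells when FAM83H-AS1 is lost. Cells labelled A549, a line from a human lung adenocarcinoma, were transfected with an siRNA against FAM83H-AS1 (silenced, 3 libraries) or with a negative control siRNA, called a scramble in the series' design text (control, 3 libraries), and total RNA was taken a day later for Ion Proton RNA-Seq. The sources used here do not say which of the study's siRNAs these cells received or whether the replicates were separate cultures, so that the p-values below may measure only technical spread.

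The proteasome breaks down proteins that carry ubiquitin chains. Its barrel, the 20S core, is built of outer alpha rings and inner beta rings, and PSMB5, PSMB6 and PSMB7 hold its active sites. The 19S cap binds, unfolds and feeds in the substrate with a ring of ATPases (PSMC genes) and a set of non-ATPase subunits (PSMD genes). Interferon exchanges the active subunits for PSMB8, PSMB9 and PSMB10, which makes the immunoproteasome, and the PSME genes encode other activators that can sit on the barrel in place of the cap.

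The libraries held 9738291 to 17742643 counts. FAM83H-AS1 itself was at 14.5, 16.0 and 17.3 CPM in the control libraries and at 4.59, 4.44 and 5.57 CPM in the silenced libraries. CPM relate a gene's counts to those of all tested genes in its library, scaled between libraries by TMM. The log2 fold change was -1.70 (SE, the standard error, 0.148, adjusted p = 7.99e-05 by edgeR), which fits the labels of the groups. The label of the cell line was met only in part. The epithelial keratins KRT8 and KRT18 were high, at 1594 to 2081 CPM and 951 to 1363 CPM, whereas EPCAM, CDH1 and KRT19 did not exceed 4.49 CPM. CDKN2A, which A549 cells are known to have lost by deletion, was at 48.2 to 74.8 CPM, and AKR1B10, an aldo-keto reductase known for its high level in A549 cells, was at only 0.777 to 2.44 CPM. NQO1 and AKR1C1, which are also known to be high in A549 cells, were at 183 to 213 CPM and 71.7 to 130 CPM. CDKN2A thus goes against the label in all 6 libraries. For AKR1B10, NQO1 and AKR1C1 no reference level of A549 cells was used, so that their values do not decide on the label. The paper states that its cell lines were authenticated by profiling of short tandem repeats. The identity of the cells was not tested further here. Markers of leukocytes stayed at or below 1.93 CPM and those of endothelial cells at or below 4.43 CPM, while among the fibroblast markers COL1A1 reached 37.3 CPM and DCN 0.391 CPM. In bulk RNA, fewer cells that express a gene and less RNA per cell cannot be told apart.

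A minority of the proteasome genes passed the test after silencing, nearly all of them downward. PSMC5, an ATPase of the cap, PSMG3, an assembly chaperone of the core, and PSMD11, a subunit of the cap's lid, carried the largest decreases. Among the 47 tested genes, 11 were downregulated and 1, PSME4, was upregulated at an adjusted p under 0.05 (edgeR's quasi-likelihood test, two-sided), against 8.27% of all tested genes that were lower and 8.75% that were higher. Of the 10028 tested genes with a mean level of at least 10 CPM, 10.8% were lower and 10.7% higher. Only PSMC5 and PSMG3 also changed by a fold over 2, both downward, which 0.997% of all tested genes did downward and 1.14% upward. DESeq2 called 14 of the 47 genes in place of 12.

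The log2 fold change was below 0 for 37 of the 47 genes (78.7%), compared with 50.1% of all tested genes. The median was -0.12 over the proteasome genes and -0.00067 over all tested genes. Leaving out PSMC3IP gave 36 of 46 genes below 0 and a median of -0.12. For 20 of the 47 genes all silenced libraries lay below all control libraries, and for 1, PSME4, above. Over all tested genes these shares were 17.5% and 19.1%. Without PSMC5, PSMD11 and PSMG3 the median was still -0.12, with 34 of 44 genes below 0. The plot of log2 fold changes by role shows these 3 genes apart from the rest.

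**Figure D1:**
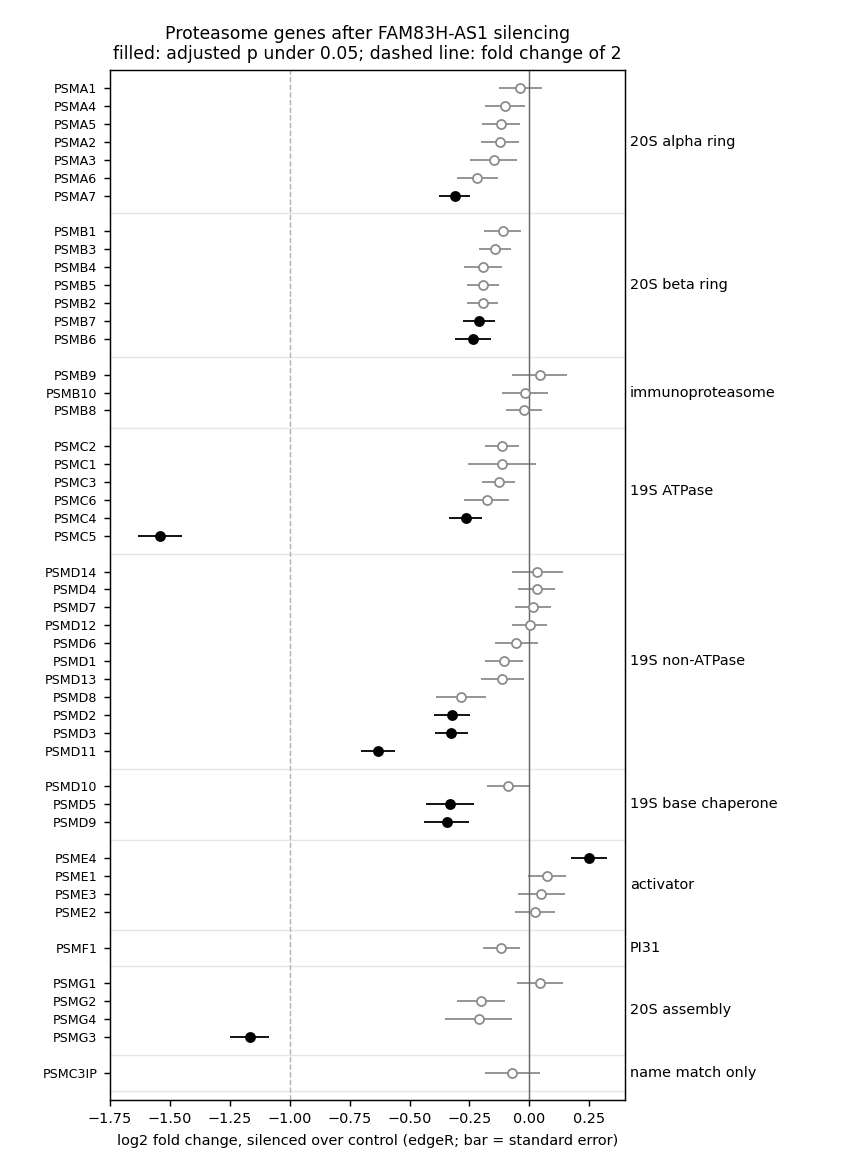
Log2 fold change (x axis, silenced over control) of the 47 tested genes, grouped by role. Points are edgeR estimates with their standard errors, filled where the adjusted p was under 0.05. PSMC5 at -1.54 and PSMG3 at -1.17 lie beyond the dashed line of a fold change of 2, and the 4 activator genes lie above 0.

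Taken as a sum, the 49 genes made up 0.697% to 0.753% of the counts of the control libraries and 0.627% to 0.659% of those of the silenced libraries. Their summed level was 7246, 7475 and 7316 CPM in the control libraries and 6188, 6455 and 6547 CPM in the silenced libraries. The groups did not overlap, and the silenced mean was 87.1% of the control mean. PSMC5, PSMD11 and PSMG3 together went from 534 ± 17.2 CPM to 247 ± 16.7 CPM (SD, n = 3), which is 287 CPM of the total difference of 949 CPM. The remaining genes summed to 90.3% of their control level.

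The ATPases of the cap are 6 genes whose products form 1 ring in equal numbers. All 6 had log2 fold changes below 0, and PSMC5 and PSMC4 passed the test. PSMC5 encodes RPT6, 1 of the ATPases that thread the substrate into the core. It was at 281, 269 and 254 CPM in the control libraries and at 93.9, 80.5 and 102 CPM in the silenced libraries. The highest silenced library thus lay far below the lowest control library, with a log2 fold change of -1.54 (SE 0.0915, adjusted p = 6.59e-06 by edgeR) or a 2.91-fold decrease. PSMC5 took 20.6% to 21.4% of the counts of the 6 ATPase genes in the control libraries and from 8.04% to 10.2% in the silenced libraries. This share is taken within each library and needs no scaling between them. PSMC5 overlaps FTSJ3 on the opposite strand by 2861 bases, and the sources do not state whether counting used the strand. FTSJ3 had a log2 fold change of -0.13 (adjusted p = 0.215 by edgeR).

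PSMC4 encodes RPT3, another ATPase of the ring. It was at 239, 245 and 240 CPM in the control libraries and at 206, 208 and 188 CPM in the silenced libraries, which did not overlap. Its log2 fold change was -0.27 (SE 0.069, adjusted p = 0.0243 by edgeR), but the adjusted p rose above 0.05, up to 0.0823, without control replicate 2, silenced replicate 1 or silenced replicate 3. The other ATPase genes PSMC1, PSMC2, PSMC3 and PSMC6 had log2 fold changes of -0.18 to -0.11 and did not pass. PSMC3 was the most abundant of them, at 595 ± 37.8 CPM in the control libraries and 544 ± 6.02 CPM in the silenced libraries (SD, n = 3).

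**Figure D2:**
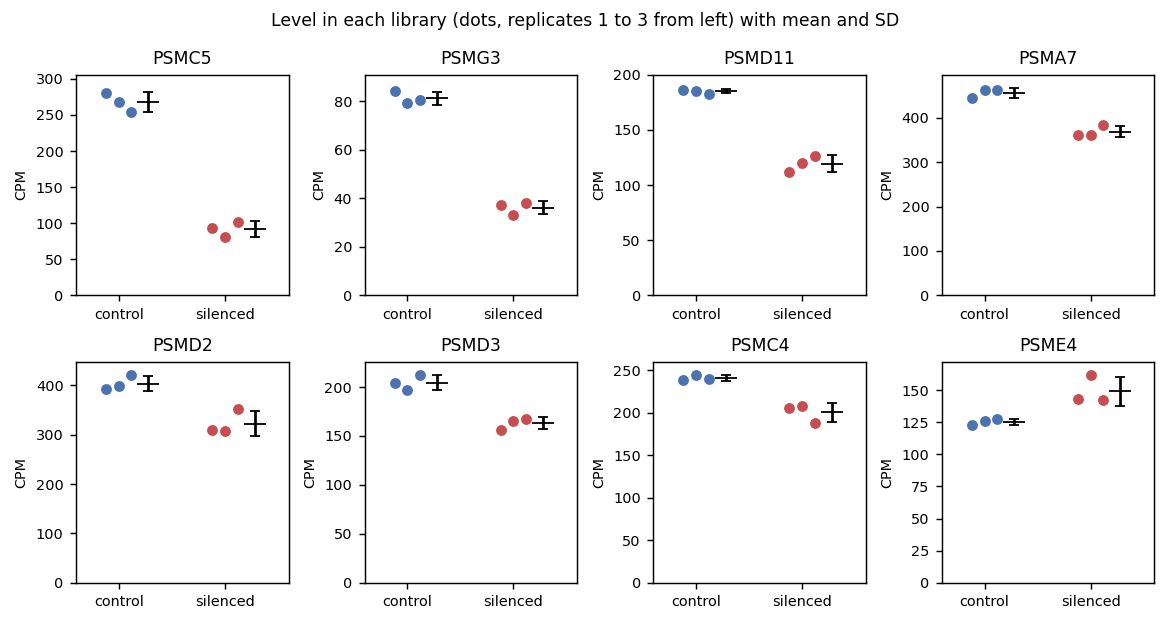
Level in CPM (y axis, from 0) of 8 proteasome genes that passed the test, with a dot per library, replicates 1 to 3 from left, and the mean with SD beside them. PSMC5, PSMG3 and PSMD11 fell to 34.3%, 44.5% and 64.5% of the control mean, and PSME4 is the only panel in which the silenced libraries lie higher.

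The non-ATPase subunits of the cap gave a mixed picture. Of 11 genes, PSMD11, PSMD3 and PSMD2 were downregulated, 7 had log2 fold changes below 0 and 4 above. PSMD11 encodes RPN6, a clamp between lid and core. It was at 186, 186 and 183 CPM in the control libraries and at 112, 120 and 126 CPM in the silenced libraries. Its groups were far apart beside their spread, with a log2 fold change of -0.63 (SE 0.0721, adjusted p = 3.98e-04 by edgeR).

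PSMD3 encodes the lid subunit RPN3 and PSMD2 the scaffold RPN1, on which ubiquitin-binding factors dock. PSMD3 was at 204, 196 and 212 CPM in the control libraries and at 156, 165 and 167 CPM in the silenced libraries, with a log2 fold change of -0.33 (SE 0.0688, adjusted p = 0.00979 by edgeR). PSMD2 was at 393, 398 and 420 CPM and at 309, 307 and 352 CPM, with a log2 fold change of -0.32 (SE 0.0747, adjusted p = 0.0146 by edgeR). Neither gene had overlapping groups. Without silenced replicate 1 both adjusted p-values were above 0.05, at 0.0622 for PSMD3 and 0.0793 for PSMD2. Among the rest, PSMD8 was at -0.29 without overlap of the groups and did not pass (adjusted p = 0.0847 by edgeR). PSMD8 did pass by DESeq2, over all genes with at least 1 count, with the replicate number as a block and without silenced replicate 3. It did not pass under the other alternatives. The ubiquitin receptor gene PSMD4 was at 0.03 and the deubiquitinase gene PSMD14 at 0.03. PSMD1, PSMD6, PSMD7, PSMD12 and PSMD13 ranged from -0.11 to 0.01.

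The chaperones that put the ATPase ring together are encoded by PSMD5, PSMD9 and PSMD10. PSMD9 was at 77.5, 71.2 and 68.5 CPM in the control libraries and at 53.0, 53.1 and 64.2 CPM in the silenced libraries, a log2 fold change of -0.35 (SE 0.0938, adjusted p = 0.0291 by edgeR). PSMD5 was at 66.3, 65.0 and 66.5 CPM and at 45.1, 60.9 and 51.1 CPM, a log2 fold change of -0.33 (SE 0.101, adjusted p = 0.0455 by edgeR). Both genes had all silenced libraries below the controls, although the silenced libraries of PSMD5 were widely spread. Leaving out 1 library took the adjusted p of PSMD9 above 0.05 in 4 of 6 cases (control replicates 1 and 2, silenced replicates 1 and 2), with an adjusted p of up to 0.118, and PSMD5 in all but the omission of silenced replicate 2, with up to 0.171. PSMD10, also known as gankyrin, was at -0.09 and did not pass.

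Only 3 of the 14 constitutive genes of the core particle passed the test, PSMA7, PSMB6 and PSMB7, all downward and by small amounts. All 7 alpha and all 7 beta genes of the constitutive core had log2 fold changes below 0, with medians of -0.12 and -0.19, and their sum was 88.1% of the control level. The groups overlapped for 5 of the alpha and 2 of the beta genes. PSMA7, an alpha subunit, was at 443, 463 and 463 CPM in the control libraries and at 360, 361 and 382 CPM in the silenced libraries. The log2 fold change was -0.31 (SE 0.0648, adjusted p = 0.00946 by edgeR), with an adjusted p of 0.056 without silenced replicate 1. The other alpha genes ranged from -0.22 for PSMA6 to -0.04 for PSMA1, which turned above 0 without control replicate 2 or silenced replicate 1. PSMB1, PSMB2, PSMB3 and PSMB4 were at -0.11, -0.20, -0.14 and -0.19 and did not pass by edgeR. PSMB2 had an adjusted p of 0.0595 by edgeR and passed by DESeq2 with an adjusted p of 0.0441.

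The active-site genes can be set beside the immunoproteasome genes that replace them. PSMB6, the caspase-like subunit, was at 214, 221 and 211 CPM in the control libraries and at 183, 170 and 196 CPM in the silenced libraries (log2 fold change -0.23, SE 0.0736, adjusted p = 0.0497 by edgeR). PSMB7, the trypsin-like subunit, was at 339, 342 and 325 CPM and at 279, 293 and 297 CPM (-0.21, SE 0.065, adjusted p = 0.0471 by edgeR). PSMB5, the chymotrypsin-like subunit and main target of proteasome inhibitors, was at 207, 203 and 203 CPM and at 171, 180 and 184 CPM, but its log2 fold change of -0.19 did not pass (adjusted p = 0.0672 by edgeR). None of the 3 genes had overlapping groups. The calls of PSMB6 and PSMB7 lie close to the threshold. PSMB7 lost its call whichever library was left out, with an adjusted p of up to 0.185, and PSMB6 in all cases but silenced replicate 3, with up to 0.147.

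The immunoproteasome genes had log2 fold changes close to 0, as had some genes of other roles, such as PSMD7 and PSMD12. PSMB8 was at 93.9, 95.9 and 87.3 CPM in the control libraries and at 94.8, 91.0 and 86.6 CPM in the silenced libraries. PSMB9 was at 49.3, 49.0 and 51.6 CPM and at 50.2, 42.7 and 61.3 CPM. PSMB10 was at 40.2, 35.2 and 36.8 CPM and at 36.5, 33.7 and 40.4 CPM. The groups of each gene overlapped, and the log2 fold changes were -0.02 (SE 0.0754), 0.04 (0.115) and -0.02 (0.0942). With library size only, without TMM, those of PSMB8 and PSMB10 turned to 0.01 and 0.02. By edgeR 0 of the 3 passed, with 0 at an unadjusted p under 0.05 and 0 by DESeq2. PSMB8 and PSMB9 lie next to each other on opposite strands and overlap by 568 bases, and PSMB9 overlaps TAP1, so that reads within these overlaps could not be told apart without the strand.

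The ratio of each immunoproteasome gene to the gene it replaces was compared within libraries. PSMB9 counts were 23.0%, 22.1% and 24.4% of PSMB6 counts without silencing, and 27.4%, 25.2% and 31.2% after it. PSMB8 counts were 45.4%, 47.3% and 43.0% of PSMB5 counts and then 55.4%, 50.5% and 47.0%, and PSMB10 counts were 11.9%, 10.3% and 11.3% of PSMB7 counts and then 13.1%, 11.5% and 13.6%. The means were higher in the silenced libraries for all 3 ratios, but only those of PSMB9 to PSMB6 did not overlap. On the log2 scale the differences were 0.26 for PSMB9 to PSMB6 (exact permutation test, two-sided, p = 0.1), 0.17 for PSMB8 to PSMB5 (p = 0.2 by the same exact test) and 0.19 for PSMB10 to PSMB7 (p = 0.2 by the same exact test). Adjusted over the 3 ratios, each exact p was 0.2. With 3 libraries against 3 the smallest p this test can give is 0.1, so that no ratio could have passed 0.05. The differences stayed above 0 whichever library was left out. The log2 fold changes of PSMB8, PSMB9 and PSMB10 were -0.02, 0.04 and -0.02, and those of PSMB5, PSMB6 and PSMB7 were -0.19, -0.23 and -0.21. The higher ratios thus went mainly with lower levels of the replaced genes.

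**Figure D3:**
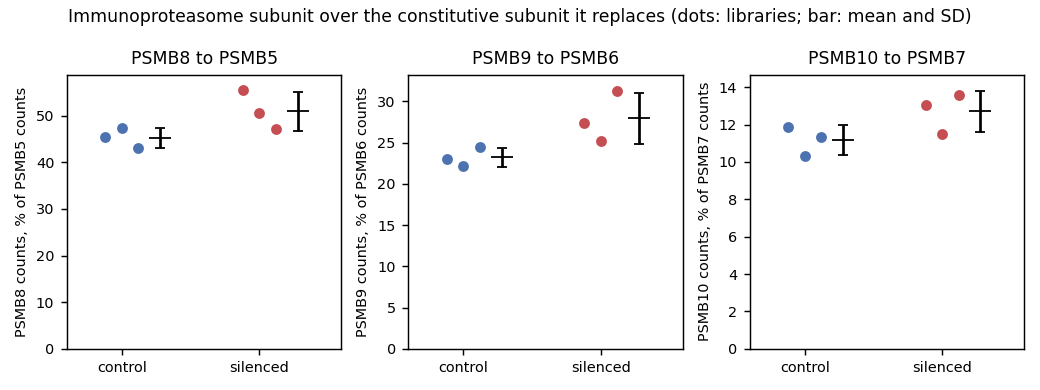
Counts of each immunoproteasome gene as a percentage of the counts of the constitutive gene it replaces (y axis, from 0), with a dot per library, replicates 1 to 3 from left, and the mean with SD. The 3 silenced libraries of PSMB9 to PSMB6, at 25.2% to 31.2%, lie above the controls at 22.1% to 24.4%, whereas the groups overlap in the other panels.

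The activators were the only role in which all tested genes lay above 0, although 1 of 4 passed. PSME4 encodes PA200, a nuclear activator linked to the breakdown of acetylated histones. It was at 123, 126 and 127 CPM in the control libraries and at 143, 162 and 142 CPM in the silenced libraries. The groups did not overlap (log2 fold change 0.25, SE 0.0753, adjusted p = 0.0432 by edgeR), but the call was lost whichever library was left out, with an adjusted p of up to 0.130. PSME1 and PSME2, which form the interferon-induced activator PA28, were at 0.07 and 0.02, and PSME3, its nuclear relative, was at 0.05. PSME2 turned below 0 without control replicate 1 or silenced replicate 3, and PSME3 without silenced replicate 2. PSMF1, which encodes the regulator PI31, had a log2 fold change of -0.12 and did not pass.

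The assembly chaperones of the core act in pairs, PSMG1 with PSMG2 and PSMG3 with PSMG4, to build the alpha ring. PSMG3 was at 84.2, 79.2 and 80.5 CPM in the control libraries and at 37.5, 33.0 and 38.0 CPM in the silenced libraries. Each silenced library was below all controls by a wide margin, with a log2 fold change of -1.17 (SE 0.081, adjusted p = 2.11e-05 by edgeR) or a 2.25-fold decrease. Its partner PSMG4 was at 16.3, 14.5 and 16.9 CPM and at 13.7, 16.3 and 11.5 CPM. These groups overlapped, and the log2 fold change of -0.21 did not pass (SE 0.14, adjusted p = 0.329 by edgeR).

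PSMG1 was at 32.9, 37.4 and 36.1 CPM in the control libraries and at 35.3, 40.5 and 34.2 CPM in the silenced libraries, with overlap and a log2 fold change of 0.04. PSMG2 was at 18.8, 20.7 and 19.7 CPM and at 16.7, 17.1 and 17.7 CPM, without overlap, and its log2 fold change of -0.20 did not pass (adjusted p = 0.187 by edgeR). PSMG3 was thus the only 1 of the 4 core chaperones with a call. It shares 933 bases with PSMG3-AS1 on the opposite strand, whose level was at most 1.89 CPM, and PSMG3-AS1 had a log2 fold change of -0.34 (adjusted p = 0.474 by edgeR). POMP, the chaperone that matures the beta ring, was at -0.03. PSMC3IP, the gene that matched by name alone, was at -0.07 and did not pass.

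The genes PSMC5 and PSMD11, together with 5 others, carry the word CCAATAA in an annotated 3′ UTR. In an earlier pass over these same counts this word had ranked first for lower levels after silencing, so that its presence in lower genes is a description and no separate evidence. The windows of 30 bases are shown because they cover genes at both ends of the range of change. Sequences are from GENCODE 29 on GRCh38, 5′ to 3′ on the gene's strand, with the word in capitals.
PSMC5, chr17:63831984-63832013, plus strand: tgtgtatctctCCAATAAagctctgtgggc
PSMD11, chr17:32482339-32482368, plus strand: tcagatgagttCCAATAAaaataatttttt
PSMD8, chr19:38383445-38383474, plus strand: cagggtttcgcCCAATAAaggtggactgac
PSMC1, chr14:90272588-90272617, plus strand: cagtctgcttcCCAATAAagcgtgctcttt
PSMD12, chr17:67340510-67340539, minus strand: acaaacatattCCAATAAtaaaagcagtat
PSME3, chr17:42842910-42842939, plus strand: tcttccaacccCCAATAAtatttccaccgg
PSME4, chr2:53864072-53864101, minus strand: tagtttaaaacCCAATAAatggattctttt

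In the order shown, the log2 fold changes were -1.54, -0.63, -0.29, -0.11, 0.00, 0.05 and 0.25. The genes with the word thus include the largest decrease and the only call upward. In 5 of the 7 windows the word runs on with A and so overlaps AATAAA, the signal for polyadenylation. Among these it starts at base 26 of a 3′ UTR of 50 bases in PSMC5 and at base 1488 of 1511 in PSME4. In PSMD8, PSMC1 and PSMD11 it starts at base 66 of 434, 192 of 3022 and 1598 of 2566. Whether these sites are used for polyadenylation was not tested, and the share of such windows over all mRNAs was not taken. The word was in 7 of the 47 tested genes (14.9%) and in 1464 of 11525 tested mRNAs with an annotated 3′ UTR (12.7%). The median log2 fold change was -0.11 over the 7 genes and -0.12 over the 40 without it. PSMG3 lacks the word.

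The promoters were read for 2 motifs known from the control of proteasome genes. NFE2L1, a transcription factor that raises proteasome genes when the proteasome is inhibited, binds antioxidant response elements with the core TGACNNNGC, and interferon regulatory factors such as IRF1 bind repeats of the form GAAANNGAAA. Promoters of 300 bases (250 before to 50 after the gene's start, RefSeq, GRCh38.p14) were given for 43 of the 49 genes. PSMA7, PSMB1, PSMB6, PSMB7, PSMD4 and PSMG3 had no entry. On either strand TGACNNNGC was in at least 1 promoter of 15 of the 43 genes (34.9%), compared with 16.1% of all 27305 genes with a promoter. Some genes have several promoters, and counted by promoter it was in 15 of 53 (28.3%) and in 13.4% of 35093. GAAANNGAAA was in 7 of the 43 genes (16.3%) and in 4.38% of all genes, or in 7 of the 53 promoters (13.2%) and in 3.58% of all promoters. The 27305 genes were not limited to tested genes of type mRNA, so that the shares compare unlike sets. A match is a string of letters and not a shown binding site.

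The matches to TGACNNNGC are shown for genes that passed the test, since they cover changes in both directions. Capitals mark the match, which reads GCNNNGTCA where it lies on the opposite strand, and the sequence is given 5′ to 3′ on the gene's strand.
PSMC5, chr17:63827654-63827682, plus strand: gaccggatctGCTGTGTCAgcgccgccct
PSMC4, chr19:39971182-39971210, plus strand: acagaggccgGCTTGGTCActatggagga
PSMD3, chr17:39980760-39980788, plus strand: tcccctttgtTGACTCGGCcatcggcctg
PSMD5, chr9:120843038-120843066, minus strand: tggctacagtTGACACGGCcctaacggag
PSMD9, chr12:121888678-121888706, plus strand: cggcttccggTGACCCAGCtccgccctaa
PSME4, chr2:53971009-53971037, minus strand: cccggcggctGCAGCGTCAccagcagagc

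The first 5 of these genes were downregulated and PSME4 was upregulated. Neither PSMD11 nor PSMD2 had a match in the window. PSMD3 and PSMD9 each hold a further match that is not printed. The other genes with TGACNNNGC were PSMA4, PSMB3, PSMB9, PSMD1, PSMD12, PSME1, PSME2, PSMG1 and PSMG2. Their log2 fold changes ranged from -0.20 for PSMG2 to 0.07 for PSME1, and none of them passed. For GAAANNGAAA the windows of the interferon-linked genes are shown, again with the match in capitals, which reads TTTCNNTTTC on the opposite strand.
PSMB8, chr6:32844032-32844061, minus strand: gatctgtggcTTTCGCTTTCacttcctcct
PSMB10, chr16:67936852-67936881, minus strand: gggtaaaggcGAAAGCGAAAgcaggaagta
PSME1, chr14:24136189-24136218, plus strand: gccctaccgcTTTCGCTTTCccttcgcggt
PSME2, chr14:24146619-24146648, minus strand: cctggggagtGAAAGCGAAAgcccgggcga

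These 4 genes had log2 fold changes of -0.02, -0.02, 0.07 and 0.02 and did not pass the test. The other genes with GAAANNGAAA were PSMA4, PSMB4 and PSMG4, at -0.10, -0.19 and -0.21, which did not pass either. PSMB9 had no match in its window.

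Several proteasome genes have processed copies in the genome that could share their reads. The table held 41 rows of type ncRNA named as pseudogenes of 15 of the genes, and 33 of these rows had counts. For 4 genes they took over 10% of the summed counts of gene and copies. PSMC1, an ATPase gene, was extreme. Its own row had 817 counts in all 6 libraries together and its 12 pseudogene rows had 5283, or 86.6%.

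PSMC1 alone was at 11.7, 13.2 and 10.5 CPM in the control libraries and at 10.5, 12.1 and 9.96 CPM in the silenced libraries. The row PSMC1P1 was at 81.5, 84.3 and 78.0 CPM and at 59.1, 62.2 and 60.8 CPM, with a log2 fold change of -0.42 (SE 0.0727, adjusted p = 0.00385 by edgeR). Its groups did not overlap, whereas those of PSMC1 did. With the pseudogene counts added to each parent before the fit, an alternative chosen after the data had been seen, the log2 fold change of PSMC1 went from -0.11 (adjusted p = 0.614 by edgeR) to -0.36 (SE 0.0734, adjusted p = 0.00802 by edgeR). The number of downregulated proteasome genes then was 12 in place of 11. The level and change of PSMC1 are therefore uncertain in these counts.

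Pseudogene rows also took 51.8% of the summed counts for PSMC6, 20.6% for PSMA6 and 20.4% for PSME2. Adding them moved the log2 fold change from -0.18 to -0.13 for PSMC6, from -0.22 to -0.22 for PSMA6 and from 0.02 to 0.05 for PSME2, and none of these passed before or after. For PSMD2 the share was 8.13%, and its call held (-0.30, adjusted p = 0.0174 by edgeR).

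**Figure D4:**
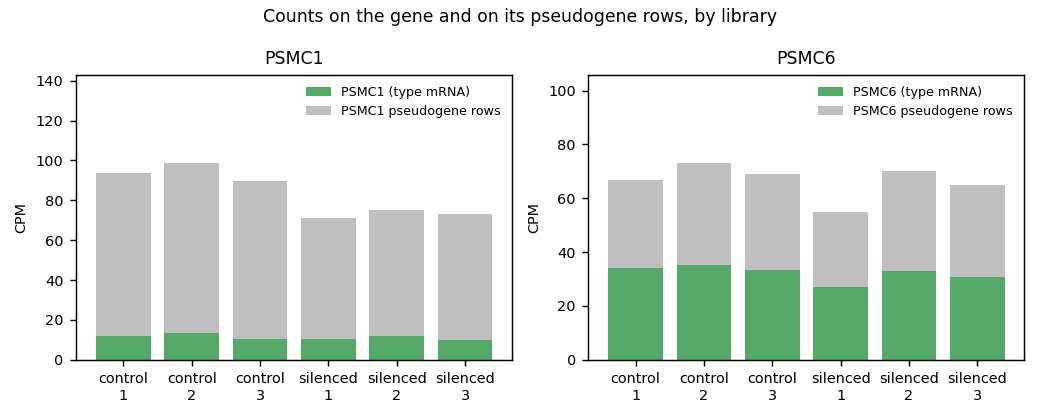
Level in CPM (y axis, from 0) of PSMC1 and PSMC6 in each library, as stacked bars of the gene's own row (green) and its pseudogene rows (grey). The PSMC1 row stays between 9.96 and 13.2 CPM in all libraries, and most of the bar is pseudogene counts.

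Levels of different genes were compared per kilobase of exon. With all exons of a gene merged, PSMA7 was highest among the 14 constitutive core genes in the control libraries, at 261 ± 6.43 CPM per kilobase (SD, n = 3), followed by PSMB3 at 228 ± 9.31 and PSMB4 at 210 ± 7.53. PSMA6 was lowest at 13.6 ± 0.507, which made the highest level 19.2 times the lowest, though the subunits stand in equal numbers in the particle. With the length of the principal or the longest transcript the ratio was 10.3, PSMB4 was highest at 471 ± 16.9 CPM per kilobase and PSMA4 lowest at 45.8 ± 2.75. The order therefore depends on the length used.

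By either length the same 6 genes led, namely PSMA7, PSMB3, PSMB4, PSMB5, PSMB6 and PSMB7. Over merged exons PSMB1 and PSMA1 (60.3 ± 4.34 and 55.9 ± 4.53) did not differ beyond their SDs, nor did PSMA2 and PSMA4 (28.95 ± 1.83 and 28.89 ± 1.73). PSMB8 was at 30.8 ± 1.49 CPM per kilobase, PSMB10 at 20.2 ± 1.37 and PSMB9 at 16.3 ± 0.454. On this scale each was below the gene it replaces, PSMB5 at 116 ± 1.17, PSMB7 at 188 ± 5.03 and PSMB6 at 149 ± 3.63. By the principal transcript PSMB8 was at 82.2 ± 3.98, PSMB9 at 63.9 ± 1.78 and PSMB10 at 30.7 ± 2.08 CPM per kilobase, also below PSMB5, PSMB6 and PSMB7 at 158 ± 1.599, 253 ± 6.16 and 342 ± 9.17.

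**Figure D5:**
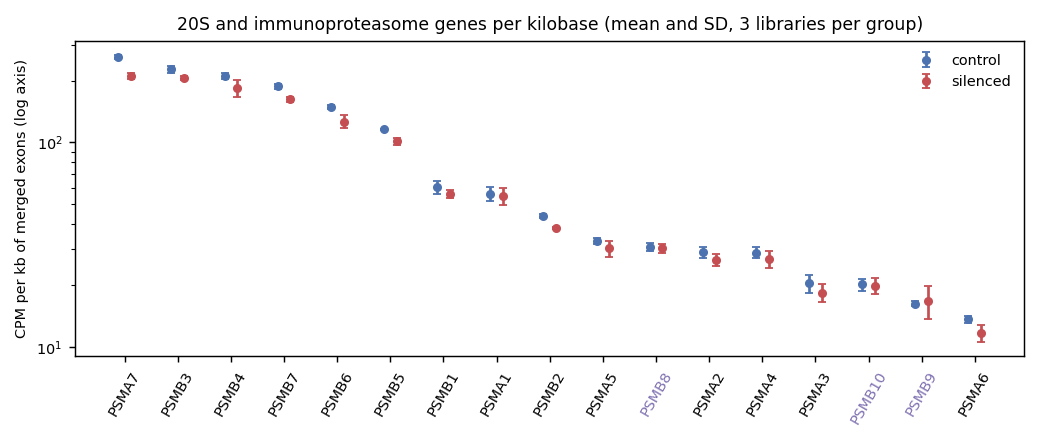
Level per kilobase of merged exons (y axis, log scale) of the 14 constitutive core genes and the 3 immunoproteasome genes (purple names), as mean with SD over 3 control (blue) and 3 silenced (red) libraries. PSMA7 leads at 261 CPM per kilobase in the control libraries and PSMA6 is last at 13.6.

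Genes that work with the proteasome but lie outside the PSM names were read from lists in the same fit. Of 49 such genes, 2 were downregulated and 9 upregulated, with a median log2 fold change of 0.08, against 8.27% lower and 8.75% higher among all tested genes. Among 17 accessory factors, TXNL1, a thioredoxin-like protein bound to the cap, fell from 45.4 ± 1.83 to 30.6 ± 1.77 CPM (SD, n = 3), which was -0.57 on the log2 scale (SE 0.0833, adjusted p = 0.0016 by edgeR). ZFAND5, which stimulates the 26S particle, and DDI2, the protease that activates NFE2L1, were upregulated at 0.32 and 0.35 (adjusted p = 0.0212 and 0.0214 by edgeR). The other 14, among them the ubiquitin receptor gene ADRM1 and the deubiquitinase genes USP14 and UCHL5, did not pass.

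Among 14 genes around NFE2L1, VCP, the segregase that pulls NFE2L1 from the membrane of the endoplasmic reticulum, was at -0.23 (adjusted p = 0.0421 by edgeR). DDI2, also counted here, and SEL1L, a component of the degradation complex of the endoplasmic reticulum at 0.33 (adjusted p = 0.0419 by edgeR), were upregulated. NFE2L1 itself was at -0.20 and did not pass (adjusted p = 0.0668 by edgeR).

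The 13 genes of antigen processing, which uses peptides from the immunoproteasome, had a median of 0.21, with 11 above 0 and 5 upregulated, where 8.75% of all tested genes were upregulated and 10.7% of those with at least 10 CPM. Among these were IRF1 at 0.50, HLA-B at 0.27, TAP2 at 0.26 and B2M at 0.22, with adjusted p-values of 0.0027 to 0.0464 by edgeR. IRF1, the factor that induces immunoproteasome genes, was at 32.3, 35.2 and 35.9 CPM in the control libraries and at 48.2, 50.5 and 47.4 CPM in the silenced libraries. TAP1 and NLRC5 were both at 0.10 and did not pass. The upward counts were small and unsteady. Leaving out 1 library at a time gave 2 to 4 upregulated genes of the 49 in place of 9. The number of downregulated genes was 1 in place of 2 without control replicate 2, silenced replicate 1 or silenced replicate 2.

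The 3 large decreases did not hang on a single library. PSMC5, PSMD11 and PSMG3 passed under all 16 alternatives, with log2 fold changes of -1.62 to -1.45, -0.68 to -0.58 and -1.21 to -1.11. Each of the smaller calls was lost without at least 1 library, which also leaves fewer libraries for the test. PSMB7 and PSME4 lost theirs whichever library was left out. The change itself need not shrink with the call. Without silenced replicate 1, PSMC4 was at -0.28, compared with -0.27 in all libraries, with an adjusted p of 0.0754 by edgeR. The number of downregulated proteasome genes was 7 without control replicate 1, 6 without control replicate 2 and 8 without control replicate 3. It was 3 without silenced replicate 1, 8 without silenced replicate 2 and 10 without silenced replicate 3. The 3 genes that passed without silenced replicate 1 were PSMC5, PSMD11 and PSMG3. The median log2 fold change of the tested genes was below 0 under each alternative, from -0.16 to -0.08.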

How the data were processed

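The authors mapped the Ion Proton reads, counted them per gene with MapSplice, and deposited the raw counts of 40173 rows without normalization. The submitters' processing notes name GRCh37, and the annotation and strand setting are not given in the sources used here. Genes were kept with edgeR's filterByExpr, scaled by TMM and compared between 3 control and 3 silenced libraries with edgeR 4.0.16 (quasi-likelihood test, Benjamini-Hochberg adjustment over 15250 genes, R 4.3.3). The standard error is the log2 fold change over the square root of F. CPM use TMM-scaled library sizes. Replicates of a group differed beyond sampling noise (chi-square per degree of freedom of 4.20 to 29.7), and all were kept as replicates. The highest values, 29.7 and 25.3, were those of control replicate 3 against control replicates 1 and 2. The other pairs reached at most 10.3. These values do not show whether the replicates were separate cultures. Every proteasome gene was accounted for, and values per library are given for genes with a fold over 2, immunoproteasome, replaced and assembly genes, and those that passed in each role. Some genes of the partner lists are counted but not reported by name here. The genes, roles and lists were chosen with earlier results of these data known. Gene models came from GENCODE 29 (GRCh38), matched by symbol for all 49 genes, and promoters from RefSeq. DESeq2 1.42.0, other scalings, filters and thresholds, a replicate block, thinned counts and omission of each library were the alternatives. The code was tested on simulated data.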

Additional observations from a re-analysis of the deposited data

How the results depend on the processing

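Beside the omission of libraries, the count of 11 downregulated proteasome genes was 5 at an adjusted p under 0.01 and 7 with library size only, and stayed within 1.5 times under the others. With the replicate number as a block it was 15. The numbers were not taken to pair the libraries, since the correlations of their deviations from the group means were 0.124, 0.149 and 0.067, although each library correlated best with its own number. The count upward was 0 at an adjusted p under 0.01 and 0 to 0 with a library left out, and the range downward was 3 to 10. The 2 calls with a fold over 2 held throughout. The partner genes gave 1 upward call at an adjusted p under 0.01 and 2 to 4 with a library left out, and for those lower 4 by DESeq2, 1 at an adjusted p under 0.01, 1 with library size only, 6 with the replicate block and 1 to 2 with a library left out. The spread of core genes per kilobase was 10.3 with the longest or the principal transcript, the latter chosen after the data had been seen, as were the pseudogene sums and the median without 3 genes. The cause of these moves was not tested, apart from the stricter threshold and the loss of a library by construction. Of 752 log2 fold changes of single genes under alternatives, 29 changed sign, and none of these passed the test. With library size only, PSMB10 was at 0.0162 and PSMB8 at 0.01005. PSMD12, at 0.00144 in the fit as reported, was at -0.00467 by DESeq2, -0.00242 with RLE, -0.00803 over all genes, -0.0261 with pseudogenes added and -0.00191 over mRNA rows. The others turned when 1 library was left out, with ranges of -0.109 to 0.0309 for PSMA1, -0.0657 to 0.0081 for PSMB8, -0.108 to 0.159 for PSMB9, -0.0926 to 0.0431 for PSMB10, -0.216 to 0.00605 for PSMC3IP, -0.0355 to 0.0887 for PSMD4, -0.025 to 0.0597 for PSMD7, -0.0216 to 0.0366 for PSMD12, -0.0716 to 0.125 for PSMD14, -0.0432 to 0.0725 for PSME2, -0.08002 to 0.116 for PSME3 and -0.034 to 0.0927 for PSMG1. Precision was lowest for the least abundant tested genes, with standard errors of 0.141 for PSMC1 and 0.14 for PSMG4.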
